A study of Mus musculus with 16 samples.

Results

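The genes that carry a cell through the G1/S transition and copy its DNA were examined in induced hair cell-like cells (iHCs) and in the embryoid bodies (EBs) they were compared with. A list of 43 such genes was drawn up by function, with earlier results of these data known. A gene was included when an entry of the array carried its symbol alone. This gave 41 genes of the 22180 that could be tested, and Rfc4 and Ccne2 were left out because their entries carry a second gene. By role there were 10 licensing genes, 5 of helicase activation, 11 of the replication fork, 4 of nucleotide supply, 7 cyclins and kinases, and 4 transcription factors.

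RNA had been measured on 16 Affymetrix Mouse Gene 2.1 ST arrays, 1 for each sample. All samples came from 1 mouse embryonic stem cell line, iGPA-Myo7a:mVenus, in which doxycycline (Dox) switches on Gfi1, Pou4f3 and Atoh1 and the Myo7a promoter drives a fluorescent protein. The 4 iHC groups received Dox alone or together with retinoic acid (Dox+RA) from day 4 and were sorted for the fluorescent protein on day 8 or day 12, after 4 or 8 days of treatment, with 3 samples in each. Control EBs of day 8 and of day 12, with 2 samples each, were untreated and whole, so treatment and sort cannot be told apart in any comparison with them. The submitters call the samples biological replicates, without saying which cultures they came from, and p-values measure the spread between these samples. Values are log2 RMA signals, on which a difference of 1 is a 2-fold change, and the number of arrays limits the precision. In bulk RNA, fewer cells of a type and less RNA per cell cannot be told apart.

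A cell in G1 prepares its origins of replication by loading MCM helicases onto them, with the origin recognition complex, Cdc6 and Cdt1 as loaders. Cyclin D and cyclin E kinases then phosphorylate the retinoblastoma protein, which releases E2F transcription factors, and these raise many of the genes needed for S phase. Hair cells of the inner ear are postmitotic, whereas EBs hold many dividing progenitors.

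E2F proteins bind promoters at sites such as TTTCCCGC, TTTCGCGC, TTTGCCGC and TTTGGCGC, and these 4 words were searched on both strands in RefSeq promoter windows (GRCm38.p6), from 250 bases before to 50 after a start. Of the 41 genes, 33 had a window, and 14 of these (42.4%) held a word, against 704 of 27025 genes with a window (2.60%). The 14 were Orc1, Cdc6, Cdt1, Mcm3, Mcm5, Mcm6, Mcm7, Gins3, Rfc3, Pola1, Pold1, Lig1, Cdk2 and E2f2. The 6 windows below were chosen with the values known. Mcm6, Mcm3, Cdc6 and Pola1 hold a word and were far lower in iHCs, and Gins3 and Pold1 hold a word and behaved otherwise. Each is written 5′ to 3′ on the gene's own strand, with the words in capitals.
Mcm6: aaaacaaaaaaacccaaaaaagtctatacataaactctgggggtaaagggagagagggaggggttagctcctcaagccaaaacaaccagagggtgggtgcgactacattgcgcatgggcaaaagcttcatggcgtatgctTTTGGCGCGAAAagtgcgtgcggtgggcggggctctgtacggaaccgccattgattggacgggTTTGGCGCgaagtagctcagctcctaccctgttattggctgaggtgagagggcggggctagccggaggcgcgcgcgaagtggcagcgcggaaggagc
Mcm3: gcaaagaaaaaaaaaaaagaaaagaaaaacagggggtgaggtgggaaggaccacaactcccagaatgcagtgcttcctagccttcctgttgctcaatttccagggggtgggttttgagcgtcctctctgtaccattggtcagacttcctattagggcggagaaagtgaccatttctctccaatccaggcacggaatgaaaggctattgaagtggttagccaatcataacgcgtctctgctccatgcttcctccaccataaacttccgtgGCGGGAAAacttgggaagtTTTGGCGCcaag
Cdc6: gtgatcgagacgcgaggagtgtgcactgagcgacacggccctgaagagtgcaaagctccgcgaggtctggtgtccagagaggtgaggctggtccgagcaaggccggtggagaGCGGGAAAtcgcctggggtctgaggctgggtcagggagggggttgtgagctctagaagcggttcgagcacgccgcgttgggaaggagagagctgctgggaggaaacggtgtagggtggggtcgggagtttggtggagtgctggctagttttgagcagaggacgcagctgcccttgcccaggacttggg
Pola1: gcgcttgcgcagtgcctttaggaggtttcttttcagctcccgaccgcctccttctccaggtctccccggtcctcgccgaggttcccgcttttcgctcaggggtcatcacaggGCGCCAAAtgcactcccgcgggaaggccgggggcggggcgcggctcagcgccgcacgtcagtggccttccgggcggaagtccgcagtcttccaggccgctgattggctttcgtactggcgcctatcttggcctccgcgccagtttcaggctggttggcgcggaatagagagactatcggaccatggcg
Gins3: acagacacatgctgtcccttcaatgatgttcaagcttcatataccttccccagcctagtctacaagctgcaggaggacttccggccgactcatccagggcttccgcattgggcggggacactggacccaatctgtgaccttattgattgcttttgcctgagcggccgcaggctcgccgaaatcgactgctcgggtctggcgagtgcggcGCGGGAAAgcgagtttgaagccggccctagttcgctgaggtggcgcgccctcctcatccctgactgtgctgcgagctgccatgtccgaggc
Pold1: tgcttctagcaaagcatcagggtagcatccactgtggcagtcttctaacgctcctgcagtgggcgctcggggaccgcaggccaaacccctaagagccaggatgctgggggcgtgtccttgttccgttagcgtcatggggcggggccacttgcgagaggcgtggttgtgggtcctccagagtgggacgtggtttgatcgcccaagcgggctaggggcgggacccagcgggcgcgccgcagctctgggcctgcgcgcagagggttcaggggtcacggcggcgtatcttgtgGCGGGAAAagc
The Mcm6 window lies at chr1:128359656-128359955 on the minus strand and has 3 matches. A pair of them overlap and start 110 and 106 bases before the start site, and the other starts 47 bases before it. The Mcm3 window (chr1:20820263-20820562, minus strand) has 2 matches, both after the start. Cdc6 (chr11:98907901-98908200, plus strand) and Pola1 (chrX:93632106-93632405, minus strand) each have 1 match, 138 bases before the start. Gins3 (chr8:95633309-95633608, plus strand) has its match 41 bases before the start, and Pold1 (chr7:44548766-44549065, minus strand) has its match after it. The same letters therefore occur in windows of genes that were lower in every iHC group and in that of Gins3, which was higher. A match is a description of letters only. Of other words searched on both strands, CCAAT was found in 21 of the 33 windows (63.6%, against 41.1% of genes) and TTTGAA or TTCGAA in 8 (24.2%, against 21.7%).

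Nearly the whole set was lower in iHCs than in control EBs of the same day. On day 8 with Dox, 36 of 41 genes fell and 1 rose, with a median log2 difference of -1.47, where the median over all genes was 0.02 (a gene was called at a Benjamini-Hochberg adjusted p under 0.05 in limma over all 22180 genes). The share of all genes called lower in that comparison was 18.9%, and the share called higher was 15.7%. On day 12 with Dox, 37 fell and 2 rose (median -1.75), against 21.7% lower and 19.2% higher over all genes. With Dox+RA, 38 fell and 1 rose on day 8 (median -1.92), against 22.0% and 19.6%. On day 12 with Dox+RA, 37 fell and 2 rose (median -1.90), against 22.4% of all genes in each direction. The 4 comparisons share the control arrays of their day.

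**Figure D1:**
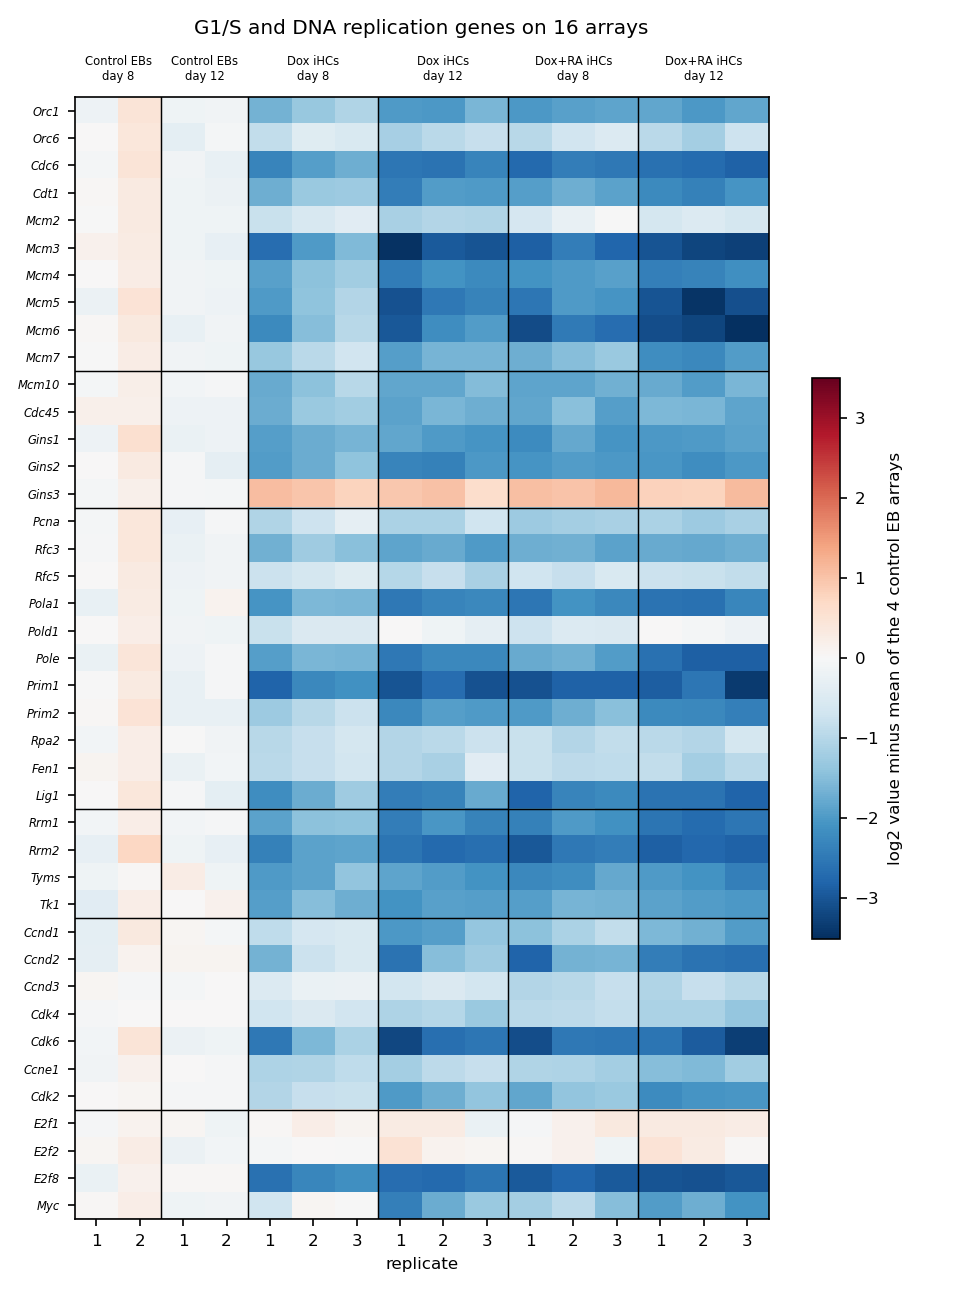
Each cell is the log2 value of a gene on 1 array minus the gene's mean over the 4 control EB arrays (colour scale, log2 units), with replicates in columns and genes in rows, divided by lines into licensing, helicase activation, fork, nucleotide supply, cyclins and kinases, and transcription factors. The 12 iHC columns are blue for most genes, Gins3 is red in all 12, and E2f1 and E2f2 are near white.

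A total of 35 genes were lower in all 4 comparisons, 24 of them by 2-fold or more in each, and Gins3 was higher in all 4. How many of all genes were lower in all 4, with or without the 2-fold bound, or higher in all 4 was not counted. These counts over all 4 comparisons thus have no share of all genes beside them. In single comparisons 25, 29, 32 and 31 of the 41 were called at 2-fold or more. Over all 22180 genes these calls were 2640, 3420, 3504 and 3783, in either direction (Dox on day 8 and day 12, then Dox+RA). In 35 genes every iHC array lay below every control EB array, which held for 16.1% of all genes. The 6 genes without such a gap were Mcm2, Gins3, Pold1, E2f1, E2f2 and Myc. Over the processing alternatives the number of called genes ran from 25 to 38 (Dox day 8), 29 to 39 (Dox day 12), 32 to 39 (Dox+RA day 8) and 31 to 40 (Dox+RA day 12).

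Cell type markers bear on how these differences can be read. All 12 hair cell markers were higher in iHCs in each comparison, with mean levels of 8.84 to 9.77 on the iHC arrays and 5.02 to 5.29 on the EB arrays. Among the 12 are Gfi1, Pou4f3 and Atoh1, which Dox switches on, and Myo7a, whose promoter drives the sorted protein. A rise in these was built into the design. All 8 mesenchyme markers were lower, with means of 4.48 to 5.15 against 8.73 to 9.53. Endothelial markers (means of 4.59 to 6.33 against 7.38 to 8.31) and cardiac markers (4.47 to 5.17 against 6.72 to 8.13) were lower too, with 5 or 6 and 4 or 6 of 6 called. Red cell markers ran from 4.17 to 5.06 against 5.05 to 7.17, with 3 or 5 of 5 lower. Endoderm markers ran from 5.09 to 5.90 against 6.34 to 7.40 (2 to 5 of 6 lower) and pluripotency markers from 4.42 to 5.07 against 5.84 to 6.34 (4 or 5 of 7 lower). Neural progenitor markers ran from 5.98 to 6.71 against 6.75 to 7.0, with 2 to 4 of 8 lower and 2 or 3 higher, and neuron markers from 6.35 to 7.19 against 4.51 to 5.05, with 4 to 6 of 8 higher and, on day 12, 1 lower. The part of these cell types in the replication gene differences was not tested.

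Origin licensing genes were lower without exception: all 10 (Orc1, Orc6, Cdc6, Cdt1 and Mcm2 to Mcm7) fell in each of the 4 comparisons. Mcm6, a subunit of the replicative helicase, varied most among the 6 groups. Its log2 values were 8.49 and 8.79 in the control EBs of day 8, and 8.21 and 8.35 in those of day 12. In Dox iHCs they were 6.22, 6.96 and 7.50 on day 8, and 5.50, 6.29 and 6.50 on day 12. In Dox+RA iHCs they were 5.33, 5.98 and 5.79 on day 8, and 5.35, 5.26 and 4.96 on day 12. The EB values stood apart above all iHC values, and the Dox iHCs of day 8 were the most scattered. Mcm6 was 3.35-fold lower with Dox on day 8 (log2 -1.74 ± 0.32, limma's standard error, adjusted p = 0.00055) and 8.53-fold lower with Dox+RA on day 12 (-3.09 ± 0.32, adjusted p = 1.4e-06). Mcm3, its partner in the same ring, was lower by 4.85-fold to 7.72-fold over the 4 comparisons. Cdc6, the loader, had log2 differences of -2.17, -2.29, -2.74 and -2.52 (given here and throughout with Dox first, then with Dox+RA, and day 8 before day 12).

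Orc6, a subunit of the origin recognition complex, varied least among licensing genes. It measured 7.94 and 8.33 in EBs of day 8 and 7.60 and 7.86 in EBs of day 12. Dox iHCs gave 7.07, 7.52 and 7.39 on day 8 and 6.78, 6.99 and 7.13 on day 12. Dox+RA iHCs gave 6.95, 7.27 and 7.46 on day 8 and 7.0, 6.75 and 7.22 on day 12. EB and iHC arrays did not overlap, yet the gap was narrow, with the highest iHC array at 7.52 and the lowest EB array at 7.60. The differences were -0.81, -0.77, -0.91 and -0.75, each ± 0.19, and without EB replicate 2 of the day the call was lost in all but Dox+RA on day 8 (adjusted p up to 0.07).

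Mcm2 stood apart from the other helicase subunits, as was seen after its values were known. Its log2 values were 8.69 and 9.02 in EBs of day 8, and 8.53 on both arrays of day 12. They were 7.90, 8.12 and 8.30 and then 7.57, 7.68 and 7.64 in Dox iHCs of days 8 and 12. They were 8.10, 8.43 and 8.69 and then 8.09, 8.22 and 8.09 in Dox+RA iHCs. A Dox+RA array of day 8 thus reached the level of an EB array of the same day. The Mcm2 differences were -0.75, -0.90, -0.45 and -0.40 (± 0.15), where Mcm3 to Mcm7 fell by 1.11 or more on the log2 scale. The calls with Dox+RA did not hold in 4 of 14 settings on day 8 and 7 of 14 on day 12, among them setting the arrays to a common median on day 12 and leaving out any 1 of the 5 arrays on day 12.

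**Figure D2:**
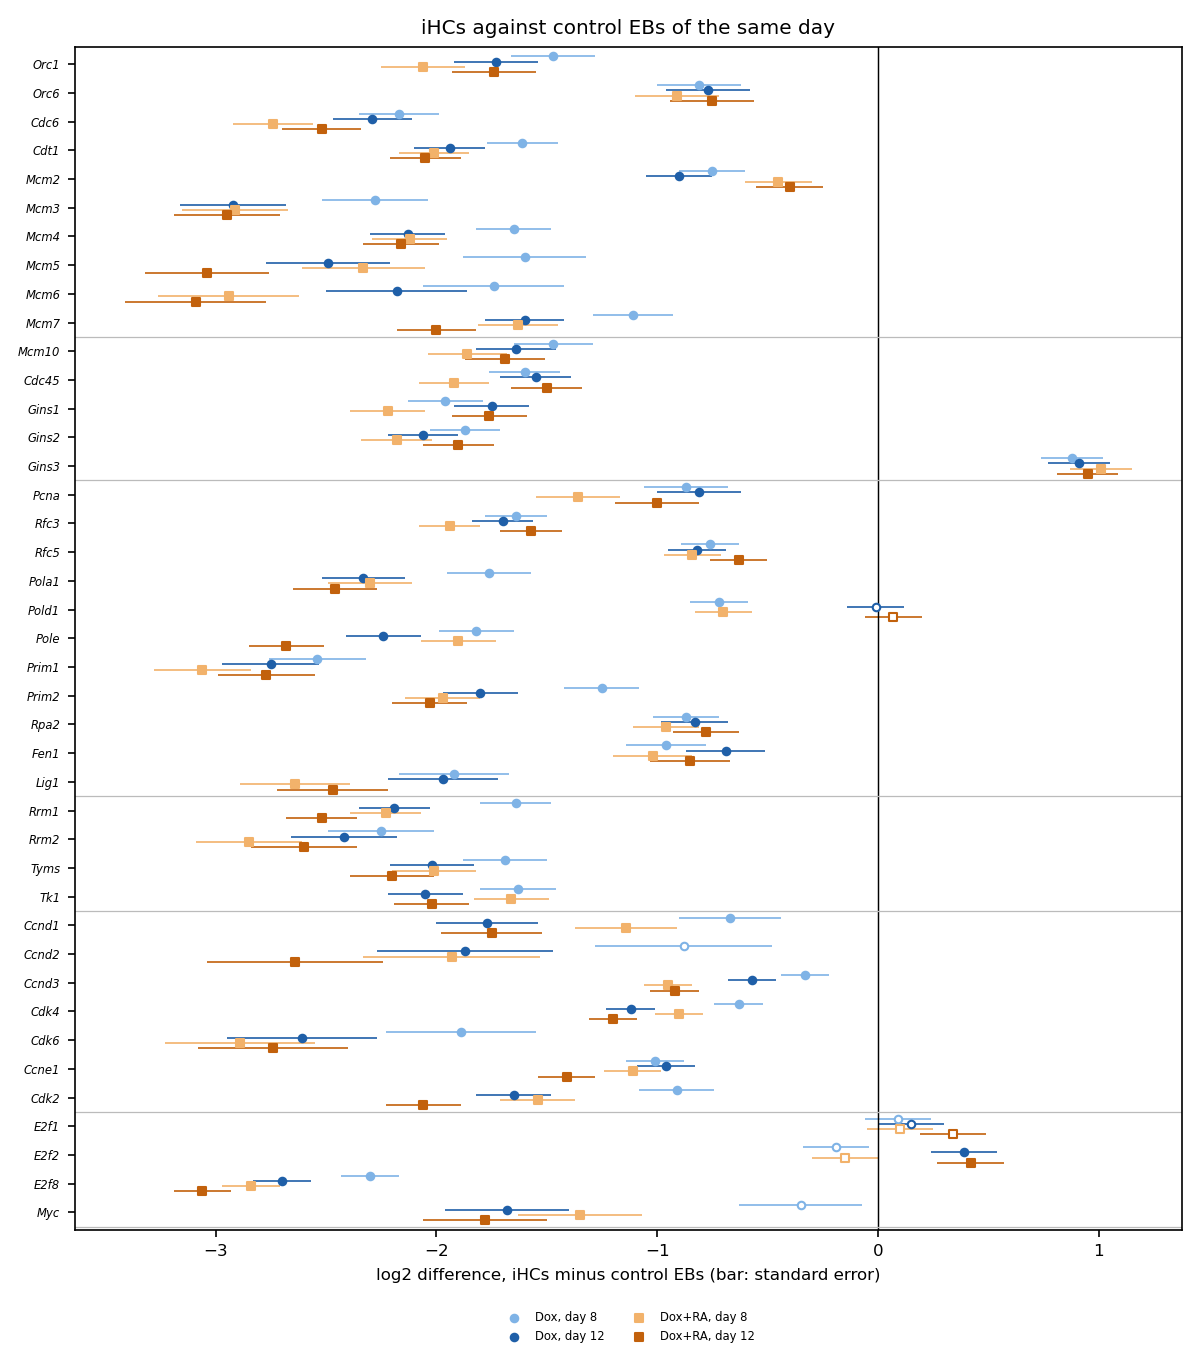
Points are log2 differences between an iHC group and the control EBs of its day for the 41 genes in role order, with bars for limma's standard error. Filled points were called and open points were not, and most lie well to the left of 0, with Gins3 at 0.88 to 1.01 and E2f1 at 0.09 to 0.34.

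Of the genes that turn the loaded MCM ring into a moving helicase, 4 fell and 1 rose in each comparison. Mcm10, Cdc45, Gins1 and Gins2 were lower by 1.47 to 2.22 on the log2 scale. Gins2 and Gins3 encode subunits of the same GINS complex and moved in opposite directions. Gins2 was at 7.63 and 7.92 in EBs of day 8 and at 7.58 and 7.30 in EBs of day 12. In Dox iHCs it was at 5.64, 5.88 and 6.20 on day 8 and at 5.30, 5.24 and 5.59 on day 12. In Dox+RA iHCs it was at 5.55, 5.65 and 5.59 and then at 5.56, 5.44 and 5.61. All iHC arrays were thus below all EB arrays, with differences of -1.87, -2.06, -2.18 and -1.90 (± 0.16, adjusted p of 2.6e-07 or less).

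Gins3 showed the reverse. Its values were 6.67 and 6.92 in EBs of day 8 and 6.70 and 6.68 in EBs of day 12. They were 7.82, 7.71 and 7.51 in Dox iHCs of day 8 and 7.69, 7.76 and 7.35 in those of day 12. With Dox+RA they were 7.80, 7.75 and 7.87 on day 8 and 7.55, 7.53 and 7.85 on day 12. Every iHC array was above every EB array. The rises were 1.84-fold, 1.88-fold, 2.01-fold and 1.94-fold (log2 0.88 to 1.01, each ± 0.14, adjusted p from 2.6e-05 to 0.00013), and the 4 iHC groups differed from one another by less than these amounts, with no call among them. The call held in all 14 settings of each comparison with no bound on fold. Gins3 has 1 entry on the array, and the RefSeq gene table lists no other gene that overlaps it.

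Replication fork genes followed the licensing genes, with 11 of 11 lower on day 8 and 10 of 11 on day 12 under either treatment. They comprised the clamp Pcna, its loader subunits Rfc3 and Rfc5, the polymerase subunits Pola1, Pold1 and Pole, the primase subunits Prim1 and Prim2, the single-strand binding protein Rpa2, the flap nuclease Fen1 and the ligase Lig1. Prim1, which makes the RNA primer, varied most. It measured 7.46 and 7.77 in EBs of day 8, and 7.19 and 7.42 in EBs of day 12. Dox iHCs gave 4.67, 5.21 and 5.34 on day 8 and 4.44, 4.80 and 4.42 on day 12. Dox+RA iHCs gave 4.41, 4.63 and 4.62 and then 4.58, 4.93 and 4.11. The lowest EB array, at 7.19, was far above the highest iHC array, at 5.34. Prim1 was 5.81-fold, 6.74-fold, 8.34-fold and 6.80-fold lower (log2 ± 0.22, adjusted p of 4.6e-07 or less). Smaller falls were found for Rpa2 (-0.78 to -0.96), Rfc5 (-0.63 to -0.84), Fen1 (-0.69 to -1.02) and Pcna (-0.81 to -1.36). Without EB replicate 2 of the day, the calls of Pcna on day 8 and of Fen1 on day 12, both with Dox, were lost (adjusted p = 0.058 and 0.055).

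Pold1, the catalytic subunit of polymerase delta, was the fork gene with the smallest range and a different course in time. It measured 6.87 and 7.09 in EBs of day 8, and 6.72 and 6.70 in EBs of day 12. Dox iHCs gave 6.07, 6.35 and 6.35 on day 8 and 6.87, 6.70 and 6.52 on day 12. Dox+RA iHCs gave 6.13, 6.37 and 6.35 on day 8 and 6.87, 6.79 and 6.67 on day 12. On day 8 the iHC arrays were all below the EB arrays, and on day 12 they overlapped. Pold1 fell on day 8 (-0.72 ± 0.13 with Dox, adjusted p = 0.00035, and -0.70 ± 0.13 with Dox+RA, adjusted p = 0.00033). On day 12 its differences were -0.01 and 0.07 (± 0.13), with 95% intervals from -0.28 to 0.26 and from -0.20 to 0.34.

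The 4 genes of nucleotide supply were all lower in each comparison: Rrm1 and Rrm2, subunits of ribonucleotide reductase, Tyms, which makes thymidylate, and Tk1, which salvages thymidine. Rrm2, the subunit whose level rises in S phase, measured 7.35 and 8.37 in EBs of day 8, and 7.49 and 7.36 in EBs of day 12. Dox iHCs gave 5.29, 5.77 and 5.79 and then 5.09, 4.92 and 5.00. With Dox+RA it was at 4.68, 5.13 and 5.23 and then 4.78, 4.89 and 4.82. The EB arrays of day 8 were further apart (SD 0.72) than those of any iHC group and still lay above all iHCs. The falls in Rrm2 were 4.75-fold, 5.35-fold, 7.21-fold and 6.05-fold (adjusted p of 2.7e-06 or less). Tk1 had the smallest range of these genes. It was at 6.93 and 7.58, and at 7.35 and 7.48, in EBs of days 8 and 12. It was at 5.42, 5.84 and 5.62, and at 5.24, 5.43 and 5.42, in Dox iHCs, and at 5.40, 5.71 and 5.68, and at 5.46, 5.39 and 5.33, in Dox+RA iHCs. EB and iHC arrays did not overlap, while iHC groups overlapped each other, and Tk1 was 3.10-fold, 4.14-fold, 3.16-fold and 4.06-fold lower.

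G1 cyclins and their kinases were lower in 6 of 7 cases with Dox on day 8 and in 7 of 7 in the other comparisons. Cdk6, a partner of the D cyclins, changed most, from 5.97 and 6.52 in EBs of day 8 and 5.88 and 5.92 in EBs of day 12. In Dox iHCs it was at 3.57, 4.51 and 4.97 on day 8 and at 2.90, 3.43 and 3.54 on day 12. In Dox+RA iHCs it was at 2.97, 3.57 and 3.54 and then at 3.51, 3.17 and 2.78. The Dox iHCs of day 8 lay between the EBs and the other iHC groups, with replicate 1 at the upper end of the latter. Cdk6 was 3.72-fold lower in them (adjusted p = 0.00039) and 6.10-fold to 7.40-fold lower in the rest. Cdk4, the other D cyclin kinase, had smaller differences of -0.63, -1.12, -0.90 and -1.20, as had Ccne1 (cyclin E1) with -1.01, -0.96, -1.11 and -1.41. Cdk2, the cyclin E kinase, had differences of -0.91, -1.65, -1.54 and -2.06.

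The 3 D cyclins differed in size and in how firmly day 8 was called. Ccnd3 had the smallest range, at 8.73 and 8.62 and then 8.59 and 8.68 in EBs of days 8 and 12. It was at 8.18, 8.41 and 8.44 and then 8.00, 8.16 and 8.02 in Dox iHCs, and at 7.64, 7.68 and 7.85 and then 7.61, 7.84 and 7.68 in Dox+RA iHCs. The Dox iHCs of day 8 came close to the EBs, and the Dox+RA iHCs were the lowest on both days. The Ccnd3 differences were -0.33, -0.57, -0.95 and -0.92 (± 0.11), and the first lost its call without EB replicate 1, EB replicate 2 or Dox replicate 1 of day 8 and in a fit of those 2 groups alone (adjusted p up to 0.16). Ccnd1, chosen after its values were seen, had differences of -0.67, -1.77, -1.14 and -1.75 (± 0.23), and its call on day 8 with Dox was lost without EB replicate 2, Dox replicate 1 or Dox replicate 2 (adjusted p up to 0.46). Ccnd2 had differences of -0.88, -1.87, -1.93 and -2.64 (± 0.40), of which the first was not called (adjusted p = 0.11). With replicate number as a block that difference was -1.05 and was called (adjusted p = 0.009), the only call gained by the block in the comparisons with EBs.

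The 4 transcription factors did not move together. E2f8, an E2F that represses and is itself raised in S phase, measured 6.80 and 7.19 in EBs of day 8, and 7.08 on both arrays of day 12. Dox iHCs gave 4.43, 4.75 and 4.90 and then 4.36, 4.31 and 4.47. The Dox+RA values were 4.09, 4.27 and 4.10 and then 4.02, 3.99 and 4.06. EB arrays lay far above all iHC arrays, and E2f8 was 4.93-fold, 6.49-fold, 7.16-fold and 8.35-fold lower (log2 ± 0.13, adjusted p of 7.2e-09 or less).

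E2f1, an activating E2F, had the smallest range of all 41 genes. It measured 7.26 and 7.41 in EBs of day 8, and 7.35 and 7.15 in EBs of day 12. Dox iHCs gave 7.34, 7.53 and 7.40 and then 7.57, 7.58 and 7.07. Dox+RA iHCs gave 7.25, 7.43 and 7.63 and then 7.61, 7.62 and 7.56. The values overlapped on both days except in Dox+RA iHCs of day 12, which were all above the EBs. Its differences were 0.09, 0.15, 0.10 and 0.34 (± 0.15), none called. The 95% intervals of the first 3 included 0 (from -0.23 at the lowest to 0.47 at the highest), and that of Dox+RA on day 12 ran from 0.03 to 0.66 (adjusted p = 0.074). This last difference was called in 4 alternative settings, namely the 2 groups alone, array weights and both scalings (adjusted p from 0.023 to 0.046). The RefSeq gene table lists Necab3 as overlapping E2f1. It also lists protein-coding genes that overlap genes that fell, such as Gins2 (Gse1), Tk1 (Afmid), Cdk4 (Tspan31) and Cdk2 (Pmel).

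E2f2, also an activator, was at 5.37 and 5.56 in EBs of day 8 and at 5.09 and 5.20 in EBs of day 12. Dox iHCs gave 5.23, 5.31 and 5.28 and then 5.80, 5.42 and 5.38, and Dox+RA iHCs gave 5.34, 5.46 and 5.15 and then 5.78, 5.58 and 5.34. On day 12 all iHC arrays were above both EB arrays, and E2f2 rose by 0.39 ± 0.15 with Dox (adjusted p = 0.045) and 0.42 ± 0.15 with Dox+RA (adjusted p = 0.027). Leaving out either EB array or replicate 1 of the iHCs, or replicate 2 with Dox+RA, ended these calls. The call with Dox was also lost in the 2 groups alone, with trend and robust variances and with all entries. It held in 8 of 14 settings, and the call with Dox+RA in 10 of 14 (adjusted p up to 0.21 and 0.15). On day 8 the differences were -0.19 and -0.15, not called.

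Myc, which drives growth and entry into S phase, was chosen after its values were seen. It measured 7.75 and 7.93 in EBs of day 8, and 7.56 and 7.57 in EBs of day 12. Dox iHCs gave 7.0, 7.78 and 7.69 on day 8 and 5.30, 5.96 and 6.41 on day 12. Dox+RA iHCs gave 6.50, 6.79 and 6.20 and then 5.74, 6.0 and 5.61. Dox iHCs of day 8 overlapped the EBs, and the other 3 iHC groups were below them. The Myc difference was -0.35 ± 0.28 with Dox on day 8 (adjusted p = 0.39, 95% interval -0.94 to 0.24) and -1.68, -1.35 and -1.78 in the other comparisons (adjusted p from 7.3e-05 to 0.00097).

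**Figure D3:**
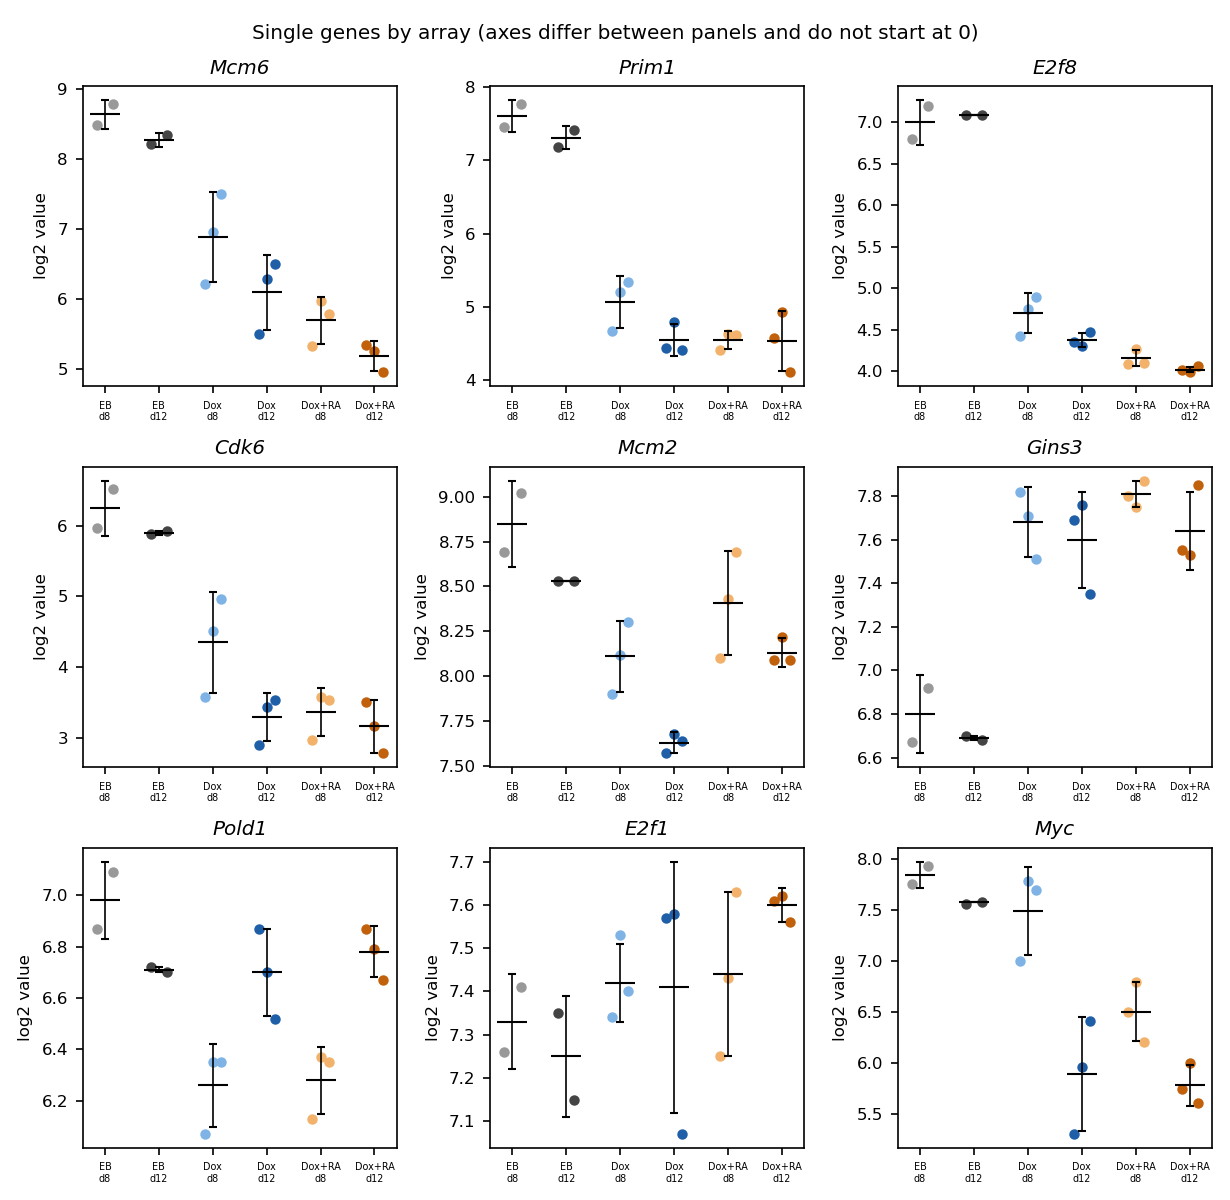
Points are the log2 values of 9 genes on each array by group, with a line at the group mean and bars of 1 SD (n = 2 for EBs, 3 for iHCs). Mcm6, Prim1, E2f8 and Cdk6 are lower in all iHC groups, Gins3 is higher, Pold1 is lower on day 8 only, and Myc in Dox iHCs of day 8 is at 7.0 to 7.78, beside 7.75 to 7.93 in EBs.

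Retinoic acid was compared within the iHCs, which were treated and sorted alike apart from it. On day 8, 7 genes were lower with Dox+RA than with Dox and none was higher, and the median difference over the set was -0.47 (0.02 over all genes, of which 2.89% were called lower). They were Mcm6 (-1.19 ± 0.29, adjusted p = 0.028), Myc (-1.0 ± 0.25, adjusted p = 0.031), Prim2 (-0.72), Cdk2 (-0.63), Ccnd3 (-0.62), Rrm1 (-0.58) and E2f8 (-0.54). Ccnd3 alone kept its call in all 15 settings (adjusted p from 0.0006 to 0.023). Mcm6 was the 1 gene among them that was also lower by 2-fold or more. With replicate number as a block, 20 genes were lower, the 7 included. The count depended on single arrays: it was 22 without Dox replicate 1, 1 without Dox replicate 2, 1 without Dox replicate 3, 1 without Dox+RA replicate 1 and 3 without Dox+RA replicate 3. Calls over all genes, in either direction, moved as well, from 1094 to 2436 with the block. They were 1559, 333, 416, 625 and 828 without those arrays in the same order. Other lists moved in the same comparison. Of 12 hair cell markers 5 were higher with Dox+RA and none lower (median 0.55), and their mean ran from 8.84 to 9.35 with Dox and from 9.65 to 9.77 with Dox+RA, without overlap. Of 28 mitosis genes 19 were lower (median -0.96). Of 8 neural progenitor markers 1 was lower, of 8 neuron markers 1 was higher, and no gene was called in the other 6 marker lists. Their part in the result was not tested.

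On day 12 no gene of the set was called between Dox+RA and Dox iHCs by limma, with 12 at an unadjusted p under 0.05 and a median of -0.10. That unadjusted p was reached by 2674 of all 22180 genes, and the median over all genes was 0.03. Over all genes 0.924% were called in either direction. Without Dox replicate 1 of that day 2 genes of the set were called, and without Dox+RA replicate 3, 1 gene. With replicate number as a block 4 were called: Mcm6 (-0.91 ± 0.22, adjusted p = 0.044), Ccne1 (-0.45) and Cdk2 (-0.41) lower, and Mcm2 higher (0.50 ± 0.11, adjusted p = 0.024). Calls over all genes went from 205 to 393 and 360 without those arrays and to 722 with the block. The change of the RA difference from day 8 to day 12 was called in none of the 41 genes (0.00902% of all genes), so the difference between the days was not shown. An unadjusted p under 0.05 was found for 5 of the set and for 1276 of all 22180 genes.

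From day 8 to day 12 part of the set fell further in Dox iHCs. There 16 genes were lower on day 12 and 1 was higher, against 4.66% and 3.39% of all genes, and the median of the set was -0.49. The lower genes were Cdt1, Mcm2, Mcm3, Mcm4, Mcm5 and Mcm7 of licensing, Gins2, the fork genes Pola1, Pole and Prim2, Rrm1, the cyclin Ccnd1 with Cdk4, Cdk6 and Cdk2, and Myc. The largest falls were those of Myc (-1.60 ± 0.25, adjusted p = 0.0025), Mcm5 (-1.17 ± 0.25, adjusted p = 0.011) and Ccnd1 (-1.10 ± 0.21, adjusted p = 0.0058). Myc, Ccnd1 and Prim2 (-1.06 ± 0.16, adjusted p = 0.0019) kept their calls in all 15 settings. The count was 25 with replicate number as a block. It was 26 without Dox day 8 replicate 1, 8 without day 8 replicate 3, 9 without day 8 replicate 2 and 7 without day 12 replicate 1, and 3 in a fit of the 2 groups alone. Calls over all genes went from 1785 to 3139 with the block. They were 1992, 784, 705 and 644 without those arrays in the same order, and 420 in the 2 groups alone. Markers moved over the same days. Of 8 neural progenitor markers 5 were lower on day 12 (median -0.58), and their mean ran from 6.47 to 6.71 on day 8 and from 5.98 to 6.20 on day 12. Of 8 neuron markers 3 were lower and 1 was higher, with differences from -1.71 to 0.71. Of 6 endothelium markers 1 was lower (median -0.71), of 5 red cell markers 2 were lower, and of 12 hair cell markers 1 was higher (median 0.35). The other 4 marker lists had no call, and 25 of 28 mitosis genes were lower (median -1.01). The part of these in the result was not tested.

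In Dox+RA iHCs 4 genes were lower on day 12 (2.61% of all genes) and 1 was higher (1.78%), with a median of -0.20. The lower ones were Mcm5 (-1.0 ± 0.25, adjusted p = 0.034), Pole (-0.98 ± 0.15, adjusted p = 0.0026), Mcm7 (-0.64) and Cdk2 (-0.59), all of which were also lower over time in Dox iHCs. Pole has 2 entries on the array, of which the higher was used. With the mean of its entries the call over time was lost under both treatments (adjusted p = 0.082 with Dox+RA). The count of 5 was 1 without day 12 replicate 1, day 12 replicate 2 or day 8 replicate 2, 2 without day 8 replicate 3 and 3 without day 12 replicate 3. The 972 calls over all genes became 419, 297, 364, 574 and 998 without those arrays in the same order. Among markers, 2 of 8 neural progenitor, 2 of 8 neuron, 2 of 5 red cell and 1 of 12 hair cell markers were lower on day 12 and none was higher, and their part was not tested. The gene that rose over time was Pold1 under both treatments, by 0.44 ± 0.11 with Dox (adjusted p = 0.029) and by 0.50 ± 0.11 with Dox+RA (adjusted p = 0.023).

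In control EBs no gene of the set was called between the days (3.75% of all genes were), and 3 had an unadjusted p under 0.05, although 35 of 41 were lower on day 12 by estimate (median -0.27). Among all 22180 genes, 3131 had an unadjusted p under 0.05 and 10988 were lower by estimate (median 0.0). Without EB day 8 replicate 1, 2 genes of the set were called, and calls over all genes went from 831 to 951. The time course was then compared between iHCs and EBs. Pold1 alone was called in each interaction, with a time change higher by 0.71 ± 0.18 in Dox iHCs than in EBs (adjusted p = 0.048, against 2.84% of all genes called) and by 0.77 ± 0.18 in Dox+RA iHCs (adjusted p = 0.034, against 2.62%). The count for Dox was 4 without Dox day 12 replicate 3 and 0 without either EB array of day 12, without Dox replicate 2 or 3 of day 8 or without Dox replicate 1 or 2 of day 12. It was 1 without Dox day 8 replicate 1 (Myc) or EB day 8 replicate 2 (Ccnd1), with Pold1 not called. For Dox+RA it was 2 without EB day 8 replicate 1 and 0 without either EB array of day 12, any Dox+RA array of day 8 or Dox+RA replicate 1 or 2 of day 12. Without EB day 8 replicate 2 it was 1, but the gene was Pole in place of Pold1. Calls over all genes without an array ran from 266 to 1068 for Dox and from 268 to 686 for Dox+RA. With a block 5 genes of the set were called in the first interaction and 1 in the second. Calls over all genes then went from 630 to 1430 and from 582 to 1150. Beside Pold1, the first 5 were Ccnd1 (-1.10), Cdk2 (-0.74), Cdk4 (-0.50) and Myc (-1.33), each with a time change lower in Dox iHCs than in EBs (adjusted p from 0.015 to 0.049). At an unadjusted p under 0.05 there were 9 and 4 genes of the set in the fit without a block. Among all 22180 genes there were 3155 and 3012.

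**Figure D4:**
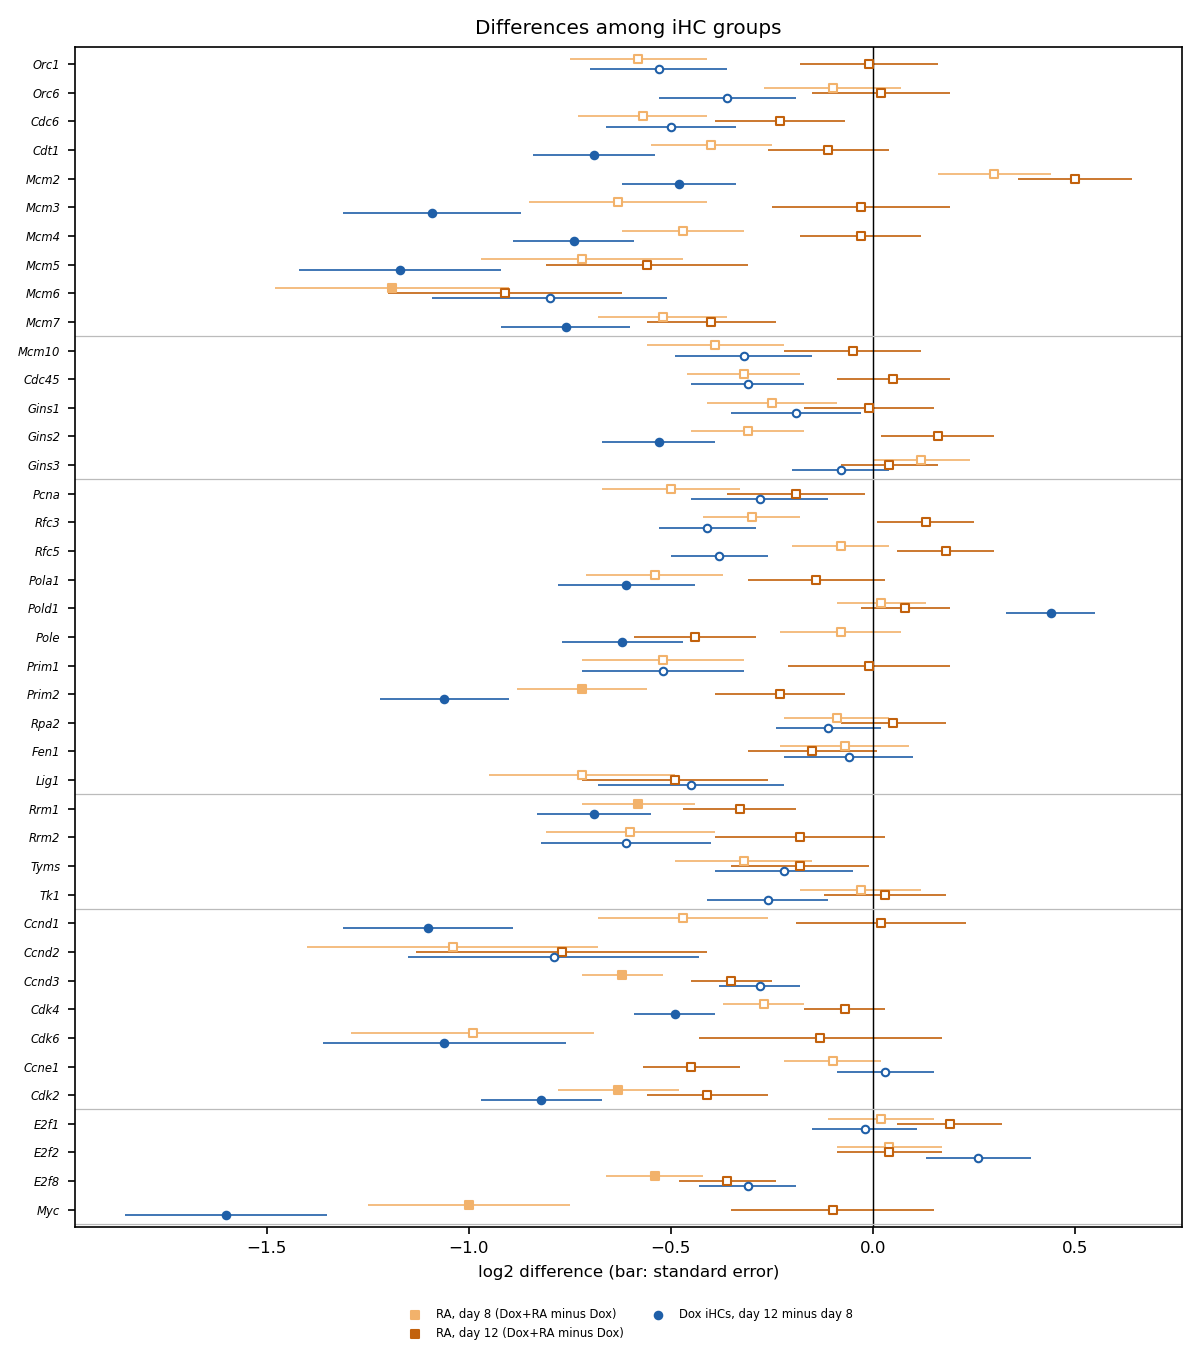
Points are log2 differences of the 41 genes between Dox+RA and Dox iHCs on each day, and between Dox iHCs of day 12 and day 8, with bars for limma's standard error; filled points were called. The 7 filled RA points are all from day 8, and Pold1 is the only filled point to the right of 0.

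The spread between replicates was large for these genes in particular groups. In Dox iHCs of day 8 the median SD was 0.25, against 0.12 over all genes, and replicate 1 was the lowest of the 3 arrays in 40 of 41 genes (35.7% of all genes were lowest there). The median of the set on the 3 arrays was 6.07, 6.55 and 6.80. Beside it, hair cell marker means were 9.35, 8.92 and 8.84, mitosis gene means 5.88, 6.46 and 6.73, mesenchyme means 4.70, 4.79 and 5.01, and pluripotency means 4.53, 4.64 and 5.07. Neuron means were 7.15, 6.98 and 6.67, red cell means 4.84, 4.83 and 4.35, and endothelium means 6.02, 6.30 and 5.67. Cardiac means were 4.65, 4.97 and 5.17, endoderm means 5.09, 5.28 and 5.77, and neural progenitor means 6.47, 6.71 and 6.56. The array with the lowest median of the set thus had the highest hair cell and neuron means. Its red cell mean was level with that of replicate 2, and its endothelium mean lay between the others. Its mitosis, mesenchyme, pluripotency, cardiac, endoderm and neural progenitor means were the lowest. The part of this in the results was not tested. Without this array, 35 genes were called against EBs of day 8 in place of 37. In Dox+RA iHCs of day 8 replicate 1 was the lowest in 30 genes, and in Dox iHCs of day 12 in 24. In Dox+RA iHCs of day 12 the medians were close, at 5.75, 5.67 and 5.61. EBs of day 8 differed by more (7.47 and 7.95) than EBs of day 12 (7.58 and 7.57).

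**Figure D5:**
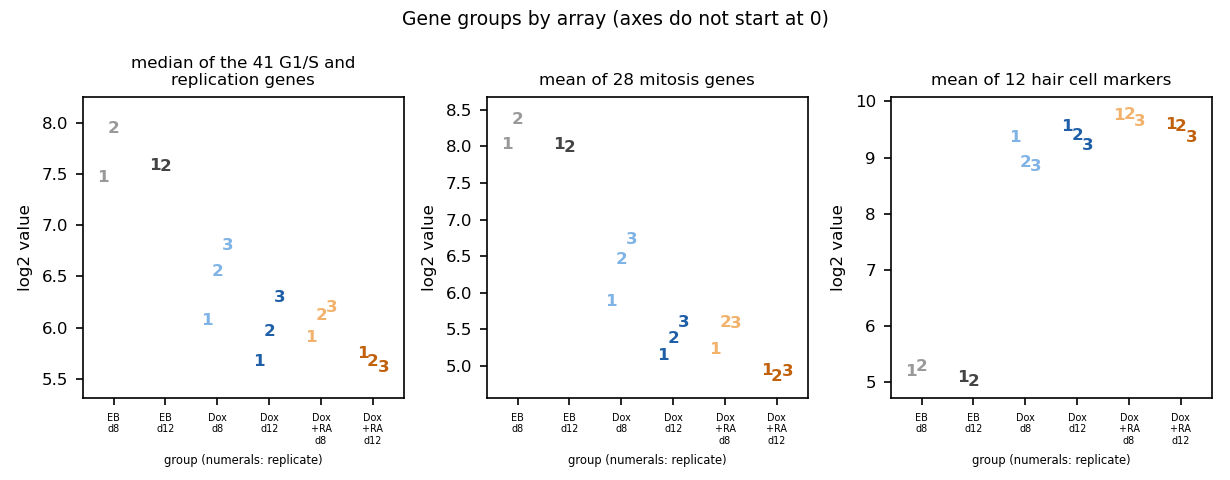
Numerals are replicates, placed at the median log2 value of the 41 genes and at the means of 28 mitosis genes and of 12 hair cell markers on that array. In Dox iHCs of day 8, replicate 1 is lowest in the first panel (6.07) and the second (5.88) and highest in the third (9.35).

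Further genes of the pathway were counted from lists drawn up by function, also with earlier results of these data known. Of 39 other replication genes, 29, 27, 30 and 27 fell and 3, 4, 4 and 4 rose in the 4 comparisons, with medians of -0.79, -1.05, -1.18 and -1.21. Among the largest falls were Ticrr, which helps to activate the helicase (-1.96, -2.61, -2.84 and -3.11), Pole2, a polymerase epsilon subunit (-2.06, -2.41, -2.71 and -2.73), and Chaf1b of chromatin assembly (-2.76 and -3.03 on day 12). Those that rose, named after their values were seen, were Rrm2b, the ribonucleotide reductase subunit used outside S phase (0.74, 1.27, 0.86 and 1.31), Orc4 (0.46, 0.49, 0.62 and 0.51), Pold4 (0.58, 0.51, 0.37 and 0.40) and, except with Dox on day 8, Cdc7 (0.58, 0.54 and 0.65). Rrm2 and Rrm2b, alternative subunits of the same enzyme, thus moved in opposite directions in all 4 comparisons.

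Of 18 other G1/S regulators, 10, 10, 10 and 11 fell and 3, 3, 4 and 4 rose. Ccna2, cyclin A2, had differences of -2.05, -3.11, -3.34 and -3.87, Skp2, which targets inhibitors for breakdown, had -1.84, -2.66, -2.79 and -3.25, and the activator E2f3 had -1.69, -2.23, -2.20 and -2.54. Rb1, the retinoblastoma protein that holds E2F in check, was the largest rise (1.80, 2.36, 1.82 and 2.23). Of 7 kinase inhibitors, 3, 2, 4 and 2 were higher and 0, 1, 2 and 3 lower. Cdkn2d, an inhibitor of the D cyclin kinases known from postmitotic hair cells, rose in each (1.23, 1.47, 1.73 and 1.59), as did Cdkn1b (0.62, 0.62, 0.55 and 0.40). Cdkn1c was higher on day 8 (1.75 ± 0.26 with Dox and 0.99 ± 0.26 with Dox+RA) and on day 12 was at -0.13, not called, and at -1.13 ± 0.26. On day 12 Cdkn2c was lower (-0.84 with Dox and -0.91 with Dox+RA). Cdkn1a was lower with Dox+RA (-0.68 on day 8 and -0.84 on day 12), so the inhibitors did not move together.

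Mitosis genes, which act after replication, were the nearest list for comparison. All 28 fell in each of the 4 comparisons, with medians of -1.90, -2.69, -2.91 and -3.17 beside -1.47, -1.75, -1.92 and -1.90 for the 41 genes. Between the iHC groups 19 of 28 were lower with RA on day 8, and 25 of 28 were lower on day 12 than on day 8 in Dox iHCs, beside 7 and 16 of the 41. Mki67, the proliferation antigen, and Cdk1, the mitotic kinase, both had a difference of -4.03 with Dox+RA on day 12. These are counts and medians side by side, and the difference between the lists was not tested.

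Genes with and without an E2F word in the window were also set side by side, as a description. The 14 with a word had median differences of -1.60, -1.84, -2.03 and -2.05, and the 19 without had -1.01, -1.12, -1.36 and -1.41. Both ranges were wide, from -3.09 (Mcm6) to 1.01 (Gins3) with a word and from -3.06 (Prim1 and E2f8) to 0.34 (E2f1) without. Prim1 and E2f8 were thus among the largest falls without a word in this window, and Gins3 rose with one.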

How the data were processed

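In all, 16 arrays were analysed from the deposited table of log2 values, which the authors made with Affymetrix Expression Console by RMA per the submitters' processing notes, with no version given. Values ran from 1.44 to 12.26 and array medians from 4.67 to 4.82, with 0 missing, and 0 columns were left unmapped. Of 33708 entries, 23521 carry 1 symbol, 1814 several and 8373 none; for genes with several entries (Fen1, Pole and Rrm2 here) the entry with the highest mean was used. The model had 6 group means over all 22180 genes, in limma 3.58.1 under R 4.3.3 with eBayes defaults, for 9 differences and 3 interactions, and called at a Benjamini-Hochberg adjusted p under 0.05. The fit was tested on data simulated for Dox against EBs of day 8 (22180 genes): it called 49 of 50 genes changed by 2 log2 units, 43 of 50 changed by 1, 42 of 50 changed by -1, 21 of 50 changed by 0.5, and 16 unchanged genes. The simulated noise was normal and independent between arrays, and few genes were changed. In the data many genes differed and same-numbered iHC arrays varied together, so these counts need not hold there. Errors after ± are standard errors from limma.

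The genes and lists were chosen with earlier results of these data known. Every gene is named in its role, and array values are given for the widest and narrowest range of group means in each role and for genes called against the majority. From other lists up to 4 called genes with the largest difference were taken. Further genes are named as chosen after their values were seen.

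Replicate numbers recur across groups. All 18 same-numbered pairs of iHC arrays had deviations from group means that correlated (r from 0.147 to 0.513, all above 0.1), so the numbers pair the iHC arrays by the data alone. Of 18 pairs with control EBs, 7 were above 0.1. No batch, strip or scan date is given in the sources used here. RMA compresses low signals. The RefSeq table lists another gene overlapping 20 of the 41 genes, 12 of them with a protein-coding one, and how the probes lie to these is not given in the sources used here. All 41 genes had a group mean above the median of the table, 4.75. Alternatives were a fit of the compared groups alone, a filter on dim genes, trend and robust variances, array weights, 2 scalings, the mean of entries, all entries, the replicate block, a 2-fold bound, and leaving out each array. Tables used pandas 2.3.3 under Python 3.11.15, and plots used matplotlib 3.10.9.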

Additional observations from a re-analysis of the deposited data

Results flagged for a closer look

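Pold1, the catalytic subunit of DNA polymerase delta, was called in the test of the time course between iHCs and control EBs. It was the 1 gene of 41 called in each interaction (2.44%), where 2.84% (Dox) and 2.62% (Dox+RA) of all genes were called. The set was thus called no more often than all genes, and both interactions use the same control EB arrays. From day 8 to day 12 Pold1 changed by 0.44 on the log2 scale in Dox iHCs and by 0.50 in Dox+RA iHCs, and by -0.27 (not called) in control EBs, which gave interactions of 0.71 and 0.77. The adjusted p ranged from 0.019 to 0.21 for Dox and from 0.014 to 0.18 for Dox+RA over the settings, and the interaction was called in 8 and 11 of 19 settings. Other genes of the set were called in some settings: Ccnd1, Cdk2, Cdk4 and Myc for Dox, each in 2 to 4 of them, and Gins1 and Pole for Dox+RA, each in 1.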

How the results depend on the processing

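The counts against control EBs stayed within 1.5 times in every setting, and no called gene changed direction. Calls that held in every setting without the 2-fold bound were 33 of 37 (Dox day 8), 36 of 39 (Dox day 12), 38 of 39 (Dox+RA day 8) and 36 of 39 (Dox+RA day 12), but 1 of 7 for RA on day 8, 3 of 17 for time in Dox iHCs, 0 of 5 for time in Dox+RA iHCs, and neither interaction call. For RA on day 8, the 7 calls became 2 in a fit of the 2 groups alone, 16 with array weights, 20 with the replicate block, 1 with the 2-fold bound, and 1 to 22 when an array was left out. The 1094 calls over all genes became 806, 2277, 2436, 250, and 333 to 1559 in the same order. For RA on day 12, the 0 calls became 2 with array weights, 4 with the replicate block and 0 to 2 without an array. Over all genes 205 became 635, 722, and 55 to 393. For time in Dox iHCs, the 17 became 3 in the 2 groups alone, 6 with the 2-fold bound and 7 to 26 without an array. Over all genes 1785 became 420, 277, and 644 to 2598. For time in Dox+RA iHCs, the 5 became 11 with array weights, 0 with the 2-fold bound and 1 to 5 without an array. Over all genes 972 became 2299, 183, and 297 to 998. For control EBs over time, the 0 became 2 without day 8 replicate 1, where 831 over all genes became 951. For the Dox interaction, the 1 became 0 in the compared groups alone, with trend and robust variances, with all entries and with the 2-fold bound, 2 after quantile normalization, 4 with array weights, 5 with the replicate block, and 0 to 4 without an array. For the Dox+RA interaction it became 0 with the 2-fold bound and 0 to 2 without an array. Over all genes the 630 calls of the Dox interaction became 694 after quantile normalization, 1021 with array weights and 1430 with the block. Without an array they were 266 to 1068. The 582 calls of the Dox+RA interaction became 347 with the 2-fold bound and 268 to 686 without an array. The replicate block moved no other count by over 1.5 times. The cause of these moves was not tested. With 2 or 3 arrays a group, the number of arrays limits what can be called.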
